A study of Drosophila melanogaster with 8 samples.

Results

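The miR-2 guides miR-2a-3p, miR-2b-3p and miR-2c-3p are microRNAs (miRNAs) cut from the 3p side of 5 Drosophila hairpins. They were taken from the deposited tables by arm name. For a guide with several hairpins the one with the highest average was kept, which left mir-2a-1-3p for miR-2a-3p, mir-2b-1-3p for miR-2b-3p and mir-2c-3p for miR-2c-3p. This gave 3 of 262 mature arms. The study sequenced RNA of 18 to 30 nt from S2 cells, an established embryonic line with blood-cell-like properties. Its labels describe 8 samples, with 2 each of wild-type cells, nbrKO cells, nbrKO cells with nbrWT-OE (wild-type Nbr added back) and nbrKO cells with nbrCM-OE (a catalytically inactive Nbr added). Here nbr encodes Nibbler, and the last 3 genotypes all lack the cells' own nbr. The sources used here do not say whether the knockout is a single clone or what drives the added genes.

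The tables name 8 libraries by number, from 81154 to 81161, and none of these numbers stands in a sample label (0 of 8). No genotype was therefore attached to any library. Values are given library by library, always from 81154 to 81161 where all 8 stand in a row. No 2 libraries are treated as replicates, and no genotypes were compared. The libraries held 17145872 to 32958242 small RNA reads and 6399941 to 11639214 miRNA reads. Levels are given as RPM, reads in every 1000000 small RNA reads. A count of 0 allows a level of up to 3 reads, 0.0910 to 0.175 RPM at these depths. Intervals and standard errors (SE) below cover counting error only. The identity of the cells was not checked against marker genes, since these libraries hold small RNAs.

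A miRNA guides an Argonaute protein to messenger RNAs mainly through its seed, the bases just after its first base. The miR-2 family is known in flies for a seed complementary to the K-box motif of some 3' untranslated regions and for repressing the cell-death genes reaper, grim and sickle. Nibbler is a 3'-to-5' exonuclease that shortens the 3' ends of some miRNAs after they have been loaded into Argonaute1, so it can change the length of a guide without touching its seed. The mature sequences of miR-2a, miR-2b and miR-2c are alike from the 5' end onward and differ only toward the 3' end.

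The first 8 bases that the tables list for each arm are shown because they define the family, with bases 2 to 8, the seed, in capitals. The last 3 arms are relatives outside the miR-2 names.
miR-2a-3p: tATCACAG
miR-2b-3p: tATCACAG
miR-2c-3p: tATCACAG
miR-13a-3p: tATCACAG
miR-13b-3p: tATCACAG
miR-11-3p: cATCACAG
The listed bases cannot separate the 3 guides, and miR-11-3p differs from them in the first base alone. In all, 9 mature arms carried these 7 capitals, all of them 3p arms.

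The 5 hairpins lie at 3 places in the genome (dm6). The hairpins mir-2a-1 (FBgn0262377, chr2L:19569897-19569972), mir-2a-2 (FBgn0262460, chr2L:19569490-19569561) and mir-2b-2 (FBgn0262449, chr2L:19570182-19570264) lie within 775 bp of each other. All 3 are on the minus strand in an intron of spi, which encodes the EGF receptor ligand Spitz. The hairpin mir-2b-1 (FBgn0262374, chr2L:8258616-8258692, minus strand) lies inside an annotated exon of Btk, which encodes a tyrosine kinase. The hairpin mir-2c (FBgn0262397, chr3R:15417744-15417845, minus strand) lies with mir-13a and mir-13b-1 within 438 bp, inside an exon of the long noncoding RNA lncRNA:CR45911. Each of the 5 arms had 1 listed start position.

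The tables listed the same reads at several of these hairpins, and the length of a read set which hairpins shared it. At 18 nt all 5 arms had equal counts in each of the 8 libraries, 6049 reads in total. At 19 and 20 nt, miR-2a-3p and miR-2c-3p still had equal counts in every library, with 21372 and 75932 reads in total, while miR-2b-3p had other counts. From 21 nt on, the counts of miR-2a-3p and miR-2c-3p parted. The hairpins mir-2a-1 and mir-2a-2 had equal counts up to 24 nt, as did mir-2b-1 and mir-2b-2, and parted from 25 nt on. The separately listed class tc, presumed to mark a T-to-C mismatch, was equal at the same lengths. Reads of 18 to 20 nt therefore cannot be given to miR-2a or miR-2c, and reads of up to 24 nt cannot be given to a particular miR-2a or miR-2b hairpin.

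This sharing made up most of what the tables list as miR-2c-3p. Its level was 840, 1009, 346, 299, 875, 809, 225 and 249 RPM. The 4 libraries 81154, 81155, 81158 and 81159 all lay above the other 4, and the highest exceeded the lowest by 4.48-fold. Reads of 18 to 20 nt, each of them also listed at miR-2a-3p, were 83.0 to 94.9% of these reads. At 21 nt or longer, where the counts of the arms differ, miR-2c-3p had 54.8, 55.2, 40.3, 37.9, 45.3, 41.6, 38.4 and 36.6 RPM. These levels spanned 1.51-fold and rested on 627 to 1472 reads per library. The wide span of miR-2c-3p was thus that of short reads it shared with miR-2a-3p, whose level of 18 to 20 nt reads ran from 187 to 954 RPM.

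**Figure D1:**
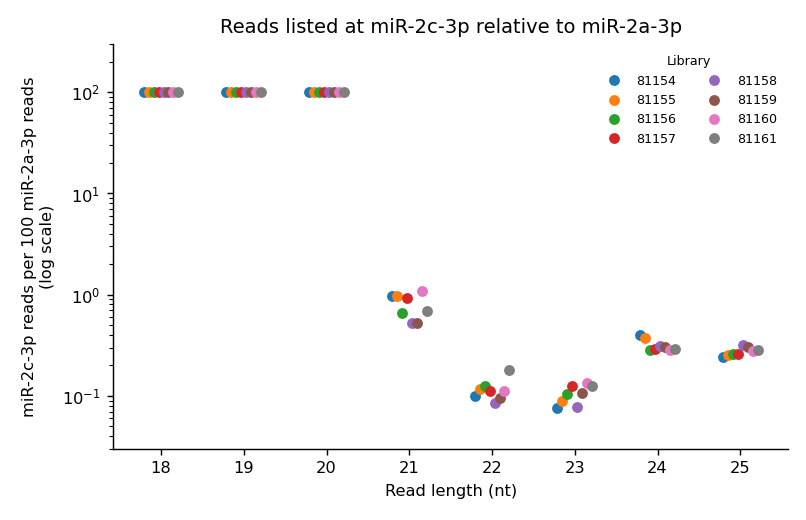
Reads listed at miR-2c-3p per 100 reads of the same length at miR-2a-3p (log scale) against read length in nt, 1 point per library, from 18 to 25 nt. Every point is at 100 for 18, 19 and 20 nt and at 1.09 or less from 21 to 25 nt.

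Beyond 20 nt, miR-2c-3p was rare beside miR-2a-3p. Per 100 miR-2a-3p reads of the same length it had a median of 0.809 reads at 21 nt (0.527 to 1.09 over the libraries), 0.112 at 22 nt, 0.105 at 23 nt and 0.297 at 24 nt (0.284 to 0.403). Most of its longer reads were 24 nt long, 487 to 1050 per library. The mean length of its reads of 21 nt or more was 23.06 to 23.69 nt (largest counting SE 0.0436 nt). It lay between 0.103 nt below and 0.150 nt above that of miR-2a-3p reads of the same lengths. The difference passed the 95% counting interval in 4 of 8 libraries. The counts of miR-2c-3p at 22 to 24 nt are small beside those of miR-2a-3p. Whether all of these reads stem from mir-2c was not tested.

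Both miR-2a-3p and miR-2b-3p were among the most abundant miRNAs of the libraries. miR-2a-3p, ranked 4 by mean level among the 100 arms that averaged 10 RPM or more and had reads in all libraries, had 18284, 18764, 16366, 14781, 20552, 18703, 14761 and 13995 RPM. It spanned 1.47-fold. miR-2b-3p, ranked 5, had 17887, 17804, 12778, 12229, 19241, 17790, 13532 and 12630 RPM, a span of 1.57-fold. On the RPM scale the 4 libraries 81154, 81155, 81158 and 81159 had the highest levels of both guides, without overlap with the other 4. As a share of miRNA reads this was kept for miR-2b-3p and lost for miR-2a-3p, which made up 4.63% in 81156 against 4.29% in 81159. A span of 2-fold or more was found in 30.0% of the 100 arms and, among the 3 guides, at miR-2c-3p alone.

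The order of the 2 abundant guides was close. The mir-2a-1 count exceeded the mir-2b-1 count in 8 of 8 libraries, by 1.02-fold in 81154 and 1.28-fold in 81156 at the extremes. With mir-2a-2 in place of mir-2a-1 the ratio in 81154 became 0.994, so in that library the order rested on the choice of hairpin. Counting each read shared between guides once, the 3 kept hairpin arms summed to 26648 to 39791 RPM, or 7.14 to 9.58% of the miRNA reads. Reads of 25 nt or more listed at the other hairpins were not added. These were at most 4436 per library at mir-2a-2 and 4156 at mir-2b-2. Of the sum of the 3 arms as listed, 0.689 to 2.68% were repeat counts of shared reads.

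Compared with their opposite arms, the guides dominated. The summed level of the 5p arms of both miR-2a hairpins was exceeded by miR-2a-3p by 5.29 to 6.79-fold, and that of the miR-2b hairpins by miR-2b-3p by 6.59 to 15.2-fold. Unlike the guides, the 5p arms are listed with first bases of their own at each hairpin. miR-2a-2-5p had a median of 2379 RPM (2036 to 2772) and miR-2a-1-5p 371 (312 to 516). miR-2b-2-5p had 1522 RPM (1074 to 2164) and miR-2b-1-5p only 9.32 (6.48 to 10.6, on as few as 173 reads). No line for a 5p arm of mir-2c was found in the tables used here.

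The reads of 25 nt or more, the ones that part the hairpins of 1 guide, had the opposite order. The hairpin mir-2a-1 had 2.47 to 4.78 times as many of them as mir-2a-2, whereas the 5p arm of mir-2a-2 exceeded that of mir-2a-1 by 4.63 to 8.48-fold. The hairpin mir-2b-1 had 7.71 to 11.6 times as many as mir-2b-2, whereas the 5p arm of mir-2b-2 exceeded that of mir-2b-1 by 102 to 298-fold. Long reads were a small part of each guide, from 2.09 to 3.83% in the case of mir-2a-1 and from 3.75 to 10.8% in that of mir-2b-1. Whether their last bases are encoded by the hairpin or added afterwards could not be read from these tables.

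Both abundant guides varied in length between libraries, in the same sets of libraries. miR-2a-3p had a mean length of 23.04, 22.99, 23.54, 23.55, 22.91, 22.92, 23.61 and 23.58 nt. Its counting SE was at most 0.00211 nt. No library lay between 23.04 and 23.54 nt, with 81154, 81155, 81158 and 81159 below this gap and the other 4 above it. The range of 0.705 nt had rank 7 among the 100 arms, whose median range was 0.210 nt.

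miR-2b-3p was shorter than miR-2a-3p in 8 of 8 libraries, by 0.405 to 0.624 nt. Its mean lengths were 22.42, 22.38, 23.01, 23.06, 22.50, 22.48, 23.21 and 23.14 nt, and the counting SE never exceeded 0.00247 nt. The gap without a library ran from 22.50 to 23.01 nt and set off the same 4 libraries as for miR-2a-3p. The range of 0.834 nt had rank 5. A range of at least 0.5 nt was found in 12.0% of the 100 arms, and in 2 of the 3 guides.

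**Figure D2:**
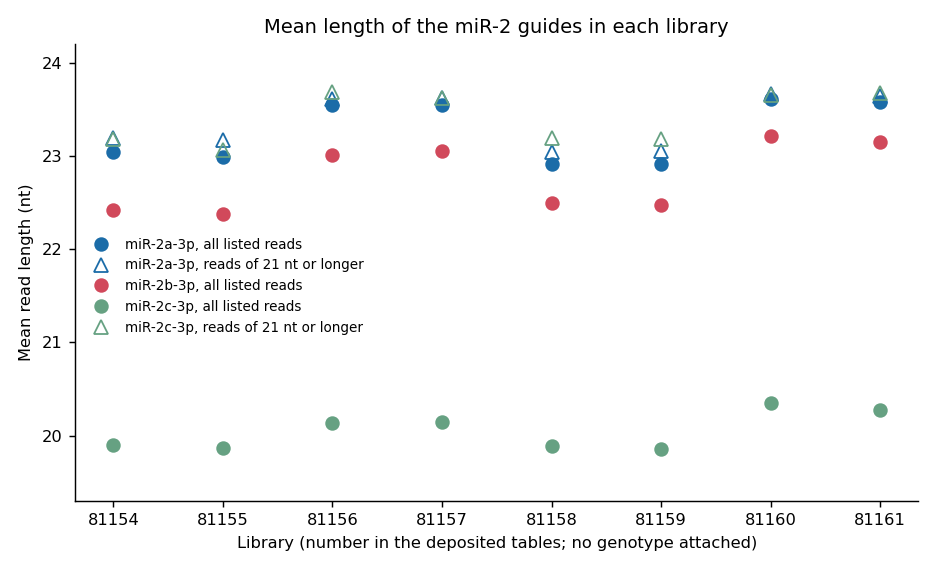
Mean read length in nt of the 3 guides in each library: filled circles for all listed reads, open triangles for reads of 21 nt or longer of miR-2a-3p and miR-2c-3p. Counting SEs are at most 0.0436 nt, within the symbols. All 3 guides are shorter in 81154, 81155, 81158 and 81159, and miR-2c-3p moves from about the 20 nt level to that of miR-2a-3p once shared reads are left out.

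miR-2c-3p as listed had mean lengths of 19.90, 19.86, 20.14, 20.14, 19.88, 19.85, 20.35 and 20.27 nt. The range of 0.498 nt fell just short of the limit of 0.5 nt. With reads of 21 nt or longer alone it was 0.625 nt, against 0.621 nt for miR-2a-3p over the same lengths. The same 4 libraries were lowest for all 3 guides with and without the shared reads. This pattern was not peculiar to them: in 46 of the 100 arms these 4 libraries had the 4 lowest mean lengths.

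**Figure D3:**
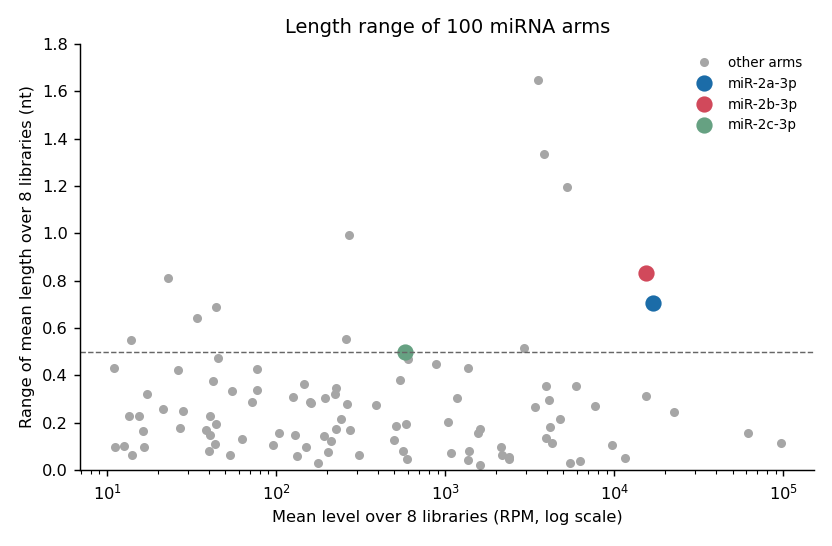
Range of the mean read length over the 8 libraries (highest minus lowest, nt) against mean level (RPM, log scale) for 100 arms, with the 3 guides coloured and a dashed line at 0.5 nt. miR-2b-3p (0.834 nt) and miR-2a-3p (0.705 nt) lie above the line and are the most abundant arms there, and miR-2c-3p (0.498 nt) lies just under it.

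The 2 abundant guides had different length profiles. miR-2a-3p reads were most often 24 nt long in every library, with a second peak at 22 nt and a dip at 23 nt in 81154, 81155, 81158 and 81159. The 24 nt share was 47.0%, 46.0%, 68.6%, 67.6%, 44.3% (95% Wilson interval 44.2 to 44.4%), 44.7%, 70.3% (70.1 to 70.5%) and 69.7%. The 22 nt share was 22.4%, 22.5%, 9.64%, 9.90%, 28.5%, 28.7%, 9.06% and 9.23%. The 23 nt share stayed between 12.8 and 15.9%.

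miR-2b-3p had 22 nt as its most common length in 81154, 81155, 81158 and 81159, 23 nt in 81156, 81157 and 81161, and 24 nt in 81160. Its 22 nt share was 47.6% (95% Wilson interval 47.5 to 47.8%), 47.2%, 24.6%, 24.9%, 40.6%, 41.7%, 21.8% and 22.5%. Its 24 nt share was 13.8%, 13.4%, 28.9%, 28.4%, 18.5%, 17.7%, 32.3% and 31.3%. In each library the 24 nt share was higher for miR-2a-3p, by 25.8 to 39.7 percentage points, and the 22 nt share was higher for miR-2b-3p.

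**Figure D4:**
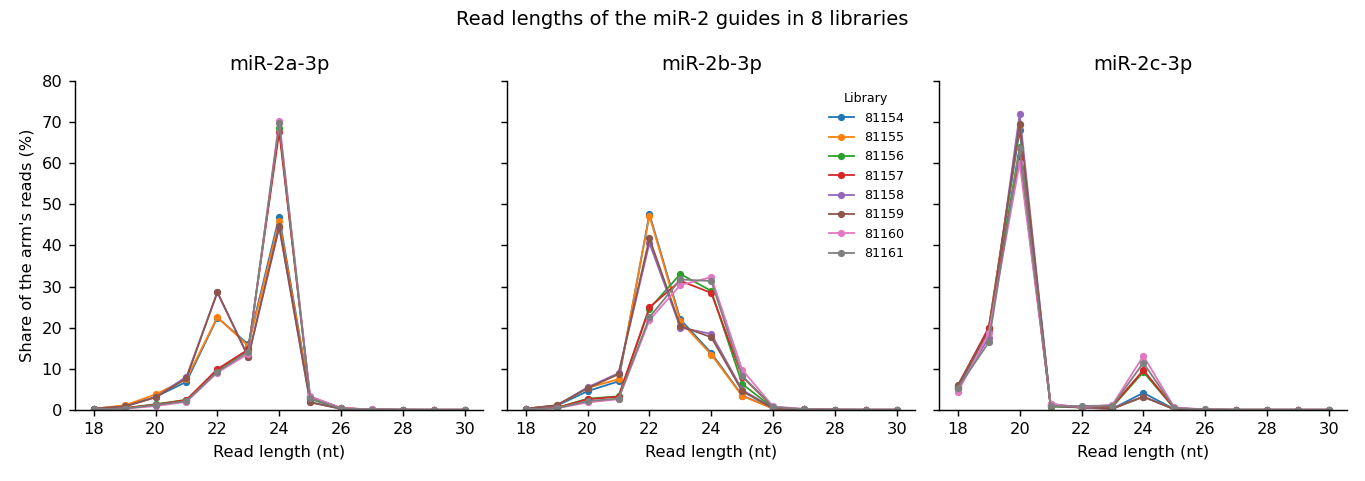
Share of each guide's reads (%) at each read length from 18 to 30 nt, 1 line per library, with a panel for each guide. miR-2a-3p peaks at 24 nt in every library, miR-2b-3p at 22 nt in 4 libraries and at 23 or 24 nt in the others, and miR-2c-3p as listed at 20 nt.

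The 4 libraries with short guides were not alike. In 81158 and 81159 miR-2a-3p was shorter than in 81154 and 81155, with 22 nt shares of 28.5 and 28.7% against 22.4 and 22.5%. In 81158 and 81159 miR-2b-3p was longer than in 81154 and 81155, with 22 nt shares of 40.6 and 41.7% against 47.6 and 47.2%. The 95% Wilson intervals of these shares did not overlap between either of the first and either of the last of these libraries. They cover counting error only, and for miR-2b-3p they did not overlap between 81154 and 81155 or between 81158 and 81159 either. The median length shift over arms was -0.0452 and -0.0820 nt in 81154 and 81155. In 81158 and 81159 it was -0.0233 and -0.0170 nt, a difference in the direction of miR-2b-3p and not of miR-2a-3p. How much of the miR-2b-3p difference is shared with other arms was not tested. The 2 guides thus kept different orders among these 4 libraries, while their wide gap lay at the same place.

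On the RPM scale the short forms varied more between libraries than the long ones. For miR-2a-3p the level of 24 nt reads spanned 1.34-fold (8361 to 11230 RPM) and that of 23 nt reads 1.47-fold (1983 to 2915 RPM). The level of 22 nt reads spanned 4.54-fold (1291 to 5866 RPM), that of 21 nt reads 5.78-fold and that of 20 nt reads 5.18-fold. For miR-2b-3p the 23 nt level was the steadiest of these, with 1.16-fold (3625 to 4223 RPM). Its 24 nt level spanned 1.83-fold (2391 to 4364 RPM), its 25 nt level 2.20-fold (598 to 1318 RPM) and its 22 nt level 3.00-fold (2842 to 8523 RPM). The number of 22 nt reads per 24 nt read ran from 0.129 to 0.644 for miR-2a-3p and from 0.676 to 3.51 for miR-2b-3p.

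**Figure D5:**
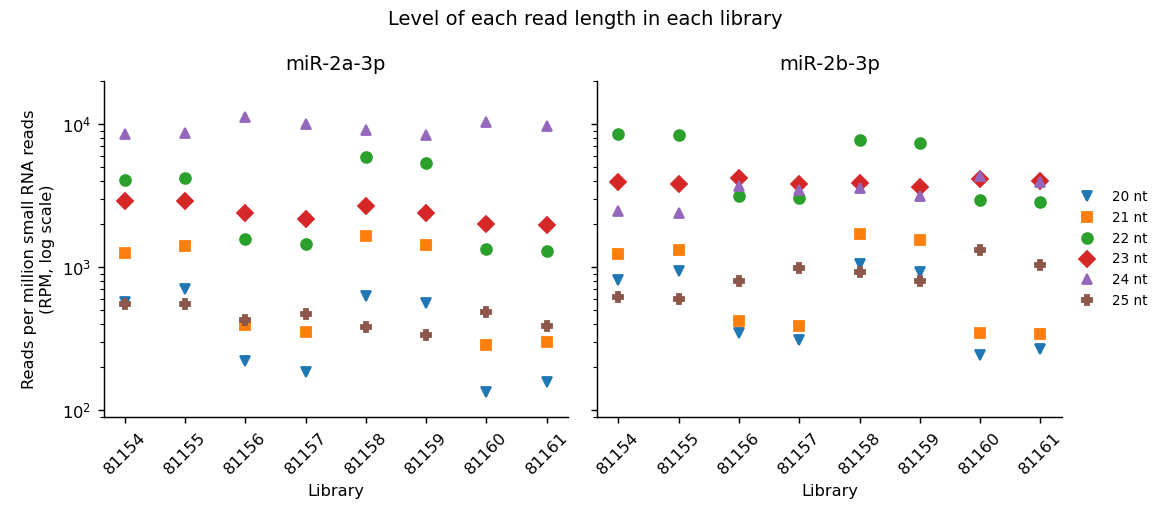
Level of reads of 20 to 25 nt (RPM, log scale) in each library for miR-2a-3p and miR-2b-3p, 1 symbol per length. Reads of 20, 21 and 22 nt are lower in 81156, 81157, 81160 and 81161, while 24 nt reads of miR-2a-3p and 23 nt reads of miR-2b-3p differ little (1.34-fold and 1.16-fold).

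Among the relatives with the same seed, lengths varied less than those of miR-2a-3p and miR-2b-3p. miR-11-3p, from an intron of E2f1, had a median of 6095 RPM and a length range of 0.356 nt, and miR-13b-3p had 9794 RPM and 0.104 nt. miR-13a-3p, encoded beside mir-2c, had 78.2 RPM and 0.429 nt on 1162 to 2320 reads. miR-308-3p had 3875 RPM and 0.137 nt, and miR-6-3p 16.9 RPM and 0.0990 nt. The order of the libraries at miR-6-3p is uncertain, since it rests on 210 to 581 reads (largest counting SE 0.0517 nt). None of these 5 relatives reached 0.5 nt (0 of 5), against 12.0% of the 100 arms. Of the 5, 3 were shortest in the same 4 libraries as the guides (miR-11-3p, miR-13a-3p and miR-13b-3p), against 46 of the 100 arms. So few relatives cannot be set apart from the other arms by these counts. The sixth relative, miR-5-3p, had 4.35 RPM, on 42 to 160 reads. The 5p arms of the miR-2a and miR-2b hairpins had length ranges of 0.0456 nt at miR-2a-2-5p, 0.159 at miR-2b-2-5p, 0.275 at miR-2a-1-5p and 0.340 at miR-2b-1-5p. At miR-2b-1-5p the largest counting SE was 0.0873 nt.

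Arms outside the miR-2 names were ranked by how closely their mean lengths, centred on each arm's own mean, followed a guide over the 8 libraries. The measure was the root mean square difference. For miR-2a-3p the closest were miR-1002-5p (0.0434 nt), miR-275-3p (0.0969 nt) and miR-12-5p (0.110 nt), and miR-2b-3p itself stood at 0.0811 nt. For miR-2b-3p they were miR-2535b-5p (0.0728 nt), miR-1002-5p (0.115 nt) and miR-275-3p (0.121 nt). For miR-2c-3p as listed they were miR-9b-5p (0.0445 nt), miR-283-5p (0.0473 nt) and miR-263a-5p (0.0635 nt). Some of these arms were rare, and their ranks are not firm. The largest counting SE was 0.0520 nt for miR-1002-5p (mean level 33.8 RPM) and 0.0719 nt for miR-2535b-5p (22.9 RPM). For miR-263a-5p (45.4 RPM) it was 0.0482 nt.

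Ranked in the same way by level, centred log2 RPM, miR-2a-3p was closest to bantam-3p (0.076 on the log2 scale), miR-304-5p (0.085) and miR-283-5p (0.087). miR-2b-3p was closest to miR-13a-3p (0.082), miR-275-3p (0.087) and bantam-3p (0.093). miR-2c-3p as listed had no close arm, with miR-34-5p nearest at 0.60, then miR-263a-5p at 0.62 and miR-13b-5p at 0.63. All these arms were measured in the same libraries and share their depth.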

How the data were processed

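Small RNAs were sequenced in 8 libraries. Tools in the submitters' processing notes are Bowtie 1.2.2, cutadapt 1.7.1 and Picard, with the build dm6. The sources used here give no mismatch or multi-mapping settings. The deposited tables give a signal, reads per 1000000 small RNA reads, for each hairpin arm, and again for each read length. They also hold the authors' score of average level per arm, and other values, the deposited totals per library. Multiplying the signal by the small RNA total gave whole reads for 100% of values within 0.001 read.

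Reads were compared between hairpins at each length. A length was called shared by 2 arms where their counts were equal in 8 of 8 libraries. Mean length was weighted by reads, shares carry 95% Wilson intervals, and spans are the highest over the lowest library. Background arms were reduced to 1 line per mature name and first 8 bases, 262 arms, of which 100 averaged 10 RPM or more with reads in all libraries. On simulated reads at the real depths, a whole shift of 1 nt was found in 20 of 20 arms, and 0 of 80 unshifted arms were called. This shift was larger than the limit set for a length range and than the range of any guide. The simulation therefore cannot show how reliable calls near that limit are. Apart from the shift, its libraries differed by counting error alone. The 0 of 80 is thus no rate of false calls among real libraries, which can differ in other ways.

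Hairpin positions are from the Ensembl release 115 annotation (dm6 coordinates). Named arms were the 3 guides, the 5p arms of their hairpins, the other 3p arms of the family, and the 3 arms most like each guide. miR-5-3p was added after the listed first bases were compared. The members and lists were chosen with earlier results of these data known. Planned tests between genotypes were not run, because library numbers match no label. Mature sequences were not used here. Python 3.11.15, pandas 2.3.3, numpy 2.4.6 and matplotlib 3.10.9 were used.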

Additional observations from a re-analysis of the deposited data

Results flagged for a closer look

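The tables hold a second class of reads, marked tc by the authors, which the labels do not define and which is read here as carrying a T-to-C mismatch. It was not set apart in the comparisons above and was present above the limit that a count of 0 allows. Over the 8 libraries together it made up 0.198% of miR-2a-3p reads (6470 of 3261008), 0.158% of miR-2b-3p reads (4640 of 2945960) and 0.176% of miR-2c-3p reads as listed (197 of 111765). Per library the shares were 0.183 to 0.214% for miR-2a-3p, 0.143 to 0.169% for miR-2b-3p and 0.140 to 0.281% for miR-2c-3p, the last on 11 to 46 reads.

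The 25 nt reads at mir-2a-2 had a higher share, 2.92% over the 8 libraries together (717 of 24547), and 2.07 to 3.71% per library. At mir-2a-1 the 25 nt reads had 0.219% (190 of 86676), and those at mir-2b-1 and mir-2b-2 had 0.150 and 0.175%. The cause was not tested.

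A search for outlying samples was not made, since the libraries carry no group.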

How the results depend on the processing

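No paired analysis was possible because no genotype or replicate number could be tied to a library, and the planned tests between genotypes, with their alternatives, were not run. Summing start positions could not change a value, since each guide has 1. Taking off tc reads moved no median or range beyond counting error. The median level was 17325 RPM for miR-2a-3p, 15661 for miR-2b-3p and 578 for miR-2c-3p. With the other hairpin it was 16901 for miR-2a-3p and 14640 for miR-2b-3p. With only reads that tell the guides apart it was 16779 for miR-2a-3p and 41.0 for miR-2c-3p. Per 1000000 miRNA reads it was 44602, 38477 and 1417, and with median-of-ratios scaling 17117, 15067 and 555, in that order of guides. With 1 library left out it ran from 16366 to 18284, 13532 to 17790 and 346 to 809.

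The length range was 0.705, 0.834 and 0.498 nt, in the same order. It became 0.696 and 0.733 nt with the other hairpin of miR-2a-3p and miR-2b-3p. It was 0.621, 0.824 and 0.625 nt with reads that tell the guides apart, 0.680, 0.799 and 0.593 nt over 20 to 26 nt, and 0.604, 0.674 and 0.404 nt with each library's median shift over arms taken off. With 1 library left out it ran from 0.672 to 0.705, 0.768 to 0.834 and 0.420 to 0.498 nt. So miR-2c-3p passed 0.5 nt over 20 to 26 nt and with reads that tell the guides apart.

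The median of the mean lengths was 23.29, 22.76 and 20.02 nt. It was 23.24 and 22.62 nt with the other hairpin of miR-2a-3p and miR-2b-3p, 23.40, 22.76 and 23.41 nt with reads that tell the guides apart, and 23.33, 22.79 and 20.42 nt over 20 to 26 nt. With 1 library left out it ran from 23.04 to 23.54, 22.50 to 23.01 and 19.90 to 20.14 nt. When a library is left out, the median of the mean lengths moves to an edge of the gap between the libraries with short and long guides. The cause of the other shifts was not tested. Depth limits miR-2c-3p, which rests on 627 to 1472 reads per library of lengths at which its counts differ from those of miR-2a-3p. Whether all of these reads stem from mir-2c was not tested.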
